A study of Mus musculus with 225 samples.

Results

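The T-box genes described here are *Tbx5*, *Tbx4*, *Tbx2*, *Tbx3*, *Tbx15* and *Tbx18*, chosen by name because they are the members of the family best known from limb development. They are 6 of 23165 genes in the raw counts, and each of the 6 is also in the authors' normalized table of 10948 genes. Single cells came from the forelimb of the mouse at embryonic day 12.5, from the autopod (the future hand) and the zeugopod (the future forearm). All embryos were heterozygous for *Hoxd11::GFP* on a mixed C57Bl6CBAF1 background, and the tau-GFP reporter inactivates the *Hoxd11* copy it sits in, so cells of both tissues carry 1 working copy of *Hoxd11*, and none received a treatment. Forelimbs of several embryos were pooled, the 20% of cells with the strongest GFP were sorted, and single cells were captured on a Fluidigm C1 chip, so cells with weaker GFP were not sampled. The 199 cells retained by the authors fall into 4 sets by tissue and sequencing run, namely 59 autopod cells from run NXT0072, 17 autopod cells from NXT0143, 58 zeugopod cells from NXT0142 and 65 from NXT0143. Since the labels tie no cell to an embryo, each tissue is 1 pooled sample, cells were not used as replicates and no p-value is given. NXT0143 is the run that holds both tissues. In the other comparison, autopod of NXT0072 against zeugopod of NXT0142, tissue and run cannot be told apart.

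T-box factors bind DNA through a shared domain, the T-box, and several of them decide where and which limb forms. *Tbx5* starts the forelimb bud through the growth factor gene *Fgf10*, and its sister gene *Tbx4* does the same work in the hindlimb under *Pitx1*, which makes *Tbx4* a control in forelimb cells. *Tbx2* and *Tbx3* are repressors known from the margins of the limb bud and from the tissue between digits, and *Tbx15* and *Tbx18* are factors of limb mesenchyme, with *Tbx15* needed for normal skeletal size.

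Retained cells had from 186271 to 9437447 reads on genes, with set medians between 2659813 and 4048526, and from 1801 to 6162 genes with at least 1 read. Limb mesenchyme markers (2 or more of *Prrx1*, *Prrx2*, *Twist1* and *Pdgfra*) were found in 130 of 199 cells, or 65.3%, and the share ran from 35.3% in autopod cells of NXT0143 to 81% in zeugopod cells of NXT0142. Chondrogenic markers were found in 73 cells and tendon markers in 17, and the cells with tendon markers were all zeugopod cells. Interdigit markers were found in 17 autopod cells and 1 zeugopod cell. The lists for muscle, epithelium, endothelium and macrophages were met in 0 of 199 cells, so a share of up to 1.51% is allowed. A gene was counted as present in a cell at 5 or more reads, and intervals in brackets are exact 95% binomial (Clopper-Pearson) intervals that cover counting error alone. For a count of 0, the share allowed is that of 3 cells, which is lower than the upper end of the exact interval drawn in the figures.

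*Tbx5* and *Tbx3* lie on chromosome 5 of GRCm38, *Tbx5* at chr5:119832668-119885219 and *Tbx3* at chr5:119670669-119684724, with 147943 bases between them. *Tbx2* (chr11:85832551-85841948) and *Tbx4* (chr11:85886422-85916097) form the matching pair on chromosome 11, 44473 bases apart. *Tbx15* lies at chr3:99240381-99354259 and *Tbx18*, the 1 member on the minus strand, at chr9:87702800-87731260. The libraries do not mark strand, and 3 members overlap a gene on the other strand, *Tbx3* over 697 bases with *Tbx3os1*, *Tbx15* over 6588 bases with Gm43120 and *Tbx18* over 1976 bases with D030062O11Rik, so reads within these stretches cannot be told apart.

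The genes are paralogs, and sequencing reads were 75 bases long. Without gaps, among coding sequences of the GENCODE M21 transcripts, the most alike windows of 75 bases were found for *Tbx4* with *Tbx5* and for *Tbx15* with *Tbx18*, with 67 identical bases in each pair, ahead of *Tbx2* with *Tbx3* at 65. The longest stretch without a mismatch was 23 bases for *Tbx4* with *Tbx5*, 23 for *Tbx15* with *Tbx18*, 14 for *Tbx2* with *Tbx3* and 20 for *Tbx5* with *Tbx2*. *Tbx6* (chr7:126781483-126785560), a T-box gene of the early mesoderm and not a member here, had 59 identical bases with *Tbx5* in their most alike window and a longest shared stretch of 23. These numbers were 60 and 20 for *Tbx5* with *Tbx15*, and 59 and 17 for *Tbx2* with *Tbx6*.

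*Tbx5*, the forelimb gene, was found in the largest share of cells of the 6 members in 3 of the 4 sets, while in autopod cells of NXT0072 *Tbx15* was present in 22 cells and *Tbx5* in 21. It was present in 32 of 76 autopod cells, or 42.1% (30.9 to 54), and in 53 of 58 and 51 of 65 cells of the zeugopod sets, or 84.6% of all zeugopod cells (76.9 to 90.4). The intervals of the tissues do not overlap, but the sets behind them differ. In the autopod, *Tbx5* was present in 35.6% of the cells of NXT0072 (23.6 to 49.1) and in 64.7% of the 17 cells of NXT0143 (38.3 to 85.8). In the zeugopod it was present in 91.4% of the cells of NXT0142 (81 to 97.1) and in 78.5% of those of NXT0143 (66.5 to 87.7). Within NXT0143, the run shared by both tissues, the intervals of autopod and zeugopod overlap.

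**Figure D1:**
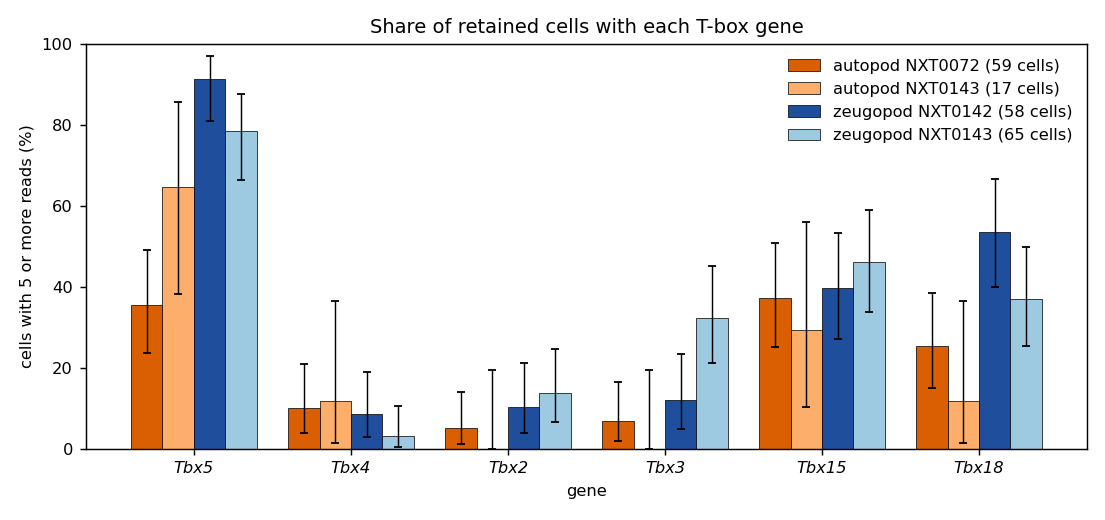
Percent of retained cells (y axis) with 5 or more reads of each T-box gene (x axis), 1 bar per set of cells by tissue and run, with exact 95% binomial intervals. *Tbx5* runs from 35.6% to 91.4% over the 4 sets, and *Tbx3* from 0 in autopod cells of NXT0143 to 32.3% in zeugopod cells of the same run.

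Levels of *Tbx5* spread widely among the cells of each set. In normalized values, which are divided by size factors from spike-ins and by gene length in kb, autopod cells of NXT0072 ran from the floor of the table to 4888 with a median of 0.213, the floor itself, and autopod cells of NXT0143 had a median of 49.1 and a highest value of 3536. Zeugopod cells had medians of 179 in NXT0142 and 53.98 in NXT0143, with highest values of 3808 and 1097. Of the 59 autopod cells of NXT0072, 30 had no *Tbx5* read, while cells at high values were found in every set. Among cells with *Tbx5* present, the median normalized value was 182 in the autopod and 169 in the zeugopod, but the sets again differed, with 81.7 and 287 in the autopod and 253 and 94.3 in the zeugopod (NXT0143 second in each). Single cells weighed heavily on the sums, since 1 cell carried 46% of the *Tbx5* of autopod NXT0072 and 1 cell 45.9% of that of autopod NXT0143.

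The difference of mean log2(normalized value + 1), autopod minus zeugopod, was -2.63 for *Tbx5*, from means of 3.16 (SD 3.79, 76 cells) and 5.79 (SD 3.49), where the SD is among cells. Between NXT0072 and NXT0142 the difference was -4.09, and within NXT0143 it was 0.20, with means of 5.22 and 5.02. *Tbx5* was therefore not called different between the tissues, since a call asked for a difference of at least 1 with the same direction in both run comparisons. With CPM (reads of a gene divided by all reads on genes, scaled) in place of the normalized values, the difference within NXT0143 was -0.17, with the opposite sign, which made *Tbx5* called as higher in the zeugopod on that scale, and with CPM after thinning every cell to 500000 reads it was 0.07. Autopod cells with *Tbx5* had a median of 4022.5 genes detected and those without it 3021.5, and in NXT0072 the medians were 4177 and 2923.5. The order was the other way in autopod cells of NXT0143, at 3908 in the 11 cells with *Tbx5* and 4234.5 in the 6 without it. In thinned cells with 1 read as criterion, *Tbx5* was present in 50% of autopod and 87.4% of zeugopod cells. The part of cell quality, of the run and of fewer cells against less RNA per cell in these numbers was not tested.

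*Tbx3*, a repressor of the limb margins, was present in 4 of 76 autopod cells, or 5.26% (1.45 to 12.9), and in 28 zeugopod cells, or 22.8% (15.7 to 31.2). All 4 autopod cells were of NXT0072, and within NXT0143 it was present in 0 of 17 autopod cells, so a share of up to 17.6% is allowed, and in 21 of 65 zeugopod cells (32.3%). The 7 zeugopod cells of NXT0142 with *Tbx3* made up 12.1%, with an interval of 4.99 to 23.3 that overlaps that of the autopod. Where it was present, *Tbx3* had a median normalized value of 143.4 among autopod cells and 101.3 among zeugopod cells, with a highest value of 1109.7. The 4 autopod cells had 7, 157, 159 and 1876 reads. The difference, autopod minus zeugopod, was -1.18 on the log2 scale (means 0.52 and 1.70), -2.0 within NXT0143 and -0.52 between the other runs.

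*Tbx18*, a factor of proximal limb mesenchyme, was present in 17 autopod cells (22.4%, 13.6 to 33.4) and 55 zeugopod cells (44.7%, 35.7 to 53.9), and these intervals do not overlap. The shares were 25.4% and 11.8% in the autopod sets and 53.4% and 36.9% in the zeugopod sets, so both zeugopod sets lay above both autopod sets. Within NXT0143, the run shared by both tissues, the intervals overlap, at 1.46 to 36.4 for the autopod and 25.3 to 49.8 for the zeugopod. The difference was -1.16 (means 1.84 and 3.0), with -1.35 within NXT0143 and -1.55 between NXT0072 and NXT0142. Where present, its median normalized value was 121.2 in the autopod (17 cells, quartiles 19.4 and 960.3) and 86.8 in the zeugopod. This order, opposite to that of the shares, depended on the scale. In CPM the medians of the same cells were 90.2 in the autopod and 137.8 in the zeugopod.

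*Tbx15*, the skeletal size factor, was present in 27 autopod cells (35.5%, 24.9 to 47.3) and 53 zeugopod cells (43.1%, 34.2 to 52.3), with intervals that overlap. Its difference was -0.55, and it was -0.55 within NXT0143 and -0.57 between the other runs. Where present, its median normalized value was 43.4 in the autopod and 182 in the zeugopod, yet the highest value of any member, 11591, was in an autopod cell of NXT0072 with 33204 *Tbx15* reads. That 1 cell made up 41.4% of all *Tbx15* in the autopod.

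*Tbx2*, the repressor next to *Tbx4*, was present in 3 autopod cells (3.95%, 0.822 to 11.1) and 15 zeugopod cells (12.2%, 6.99 to 19.3). Of the 15 zeugopod cells, 8 had 5 to 9 reads, and at 10 or more reads the share was 5.69%. The 3 autopod cells had 11, 347 and 580 reads, and the zeugopod cells with the most had 141, 356 and 1523, all from NXT0143. These 3 zeugopod cells held 215, 0 and 6 *Tbx5* reads, whereas the 8 cells with 5 to 9 *Tbx2* reads held between 1158 and 7719. The difference between the tissues was -0.09, with -0.41 and 0.07 in the run comparisons.

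Of the 6 members, 2 were called as higher in the zeugopod, *Tbx3* and *Tbx18*, beside 4.29% of all 10948 genes (470 genes), and 0 were called as higher in the autopod, beside 2.47% (270 genes). Among 4898 genes found at 5 reads or more in a minimum of 25% of autopod or of zeugopod cells, these shares were 9% and 5.25%. The members were chosen by name, but with earlier results of these data known. On pooled cells without the rule on runs, 3 members (*Tbx5* too) passed toward the zeugopod beside 6.26% of all genes, and 0 toward the autopod beside 2.83%. Both calls rest on the size of the pooled difference, as a pseudocount of 10 in place of 1 gave -0.65 for *Tbx3* and -0.61 for *Tbx18* and left no member called. Run comparisons disagreed in sign for *Tbx5*, *Tbx4* and *Tbx2*, and for 48.5% of all genes, a share that takes differences of any size. Among genes with a pooled difference of 1 or more, as *Tbx5* had, 470 of 685 toward the zeugopod kept the same direction in both comparisons. Toward the autopod 270 of 310 did.

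**Figure D2:**
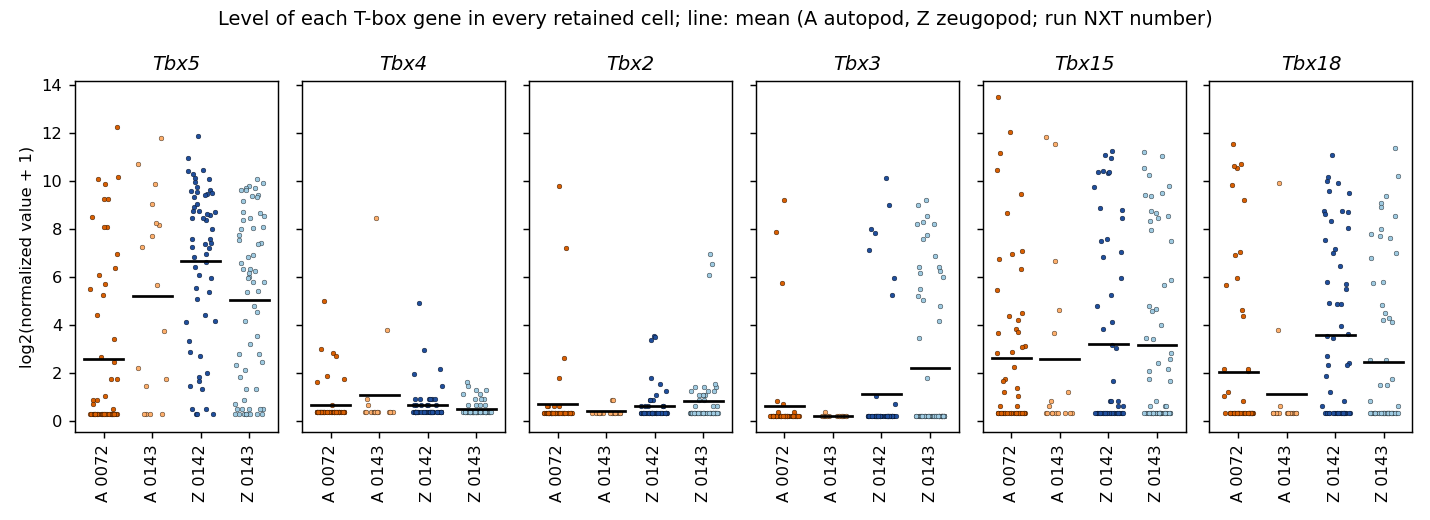
Log2(normalized value + 1) (y axis) of each T-box gene in every retained cell, by tissue (A autopod, Z zeugopod) and run number (x axis), with the mean of each set as a line. Cells lie on the floor of the table or spread above it, to values above 10 for *Tbx5*, *Tbx3*, *Tbx15* and *Tbx18*. The highest values are 8.47 for *Tbx4* and 9.79 for *Tbx2*. *Tbx5* in autopod cells of NXT0072 (mean 2.56) and zeugopod cells of NXT0142 (mean 6.65) stand farthest apart.

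Per kb of gene, the order of mean log2 levels in the zeugopod was *Tbx5* (5.79), *Tbx15* (3.17), *Tbx18* (3.0), *Tbx3* (1.70), *Tbx2* (0.73) and *Tbx4* (0.58). In the autopod it was *Tbx5* (3.16), *Tbx15* (2.62), *Tbx18* (1.84), *Tbx4* (0.75), *Tbx2* (0.64) and *Tbx3* (0.52). Every pair of neighbours in either order differed by less than the SD among cells of the upper one, and *Tbx15* and *Tbx18* changed places between the zeugopod sets, with 3.20 against 3.59 in NXT0142 and 3.15 against 2.47 in NXT0143. In autopod cells of NXT0072 alone *Tbx15* (2.62) stood above *Tbx5* (2.56) and *Tbx2* (0.71) above *Tbx4* (0.65), so that the first place of *Tbx5* in the autopod rests on the 17 cells of NXT0143 (5.22 against 2.59 for *Tbx15*). Of the summed normalized values of the 6 genes above their floors, *Tbx5* made up 42.9% for zeugopod cells and 30.9% for autopod cells, *Tbx15* 30.9% and 47.2%, *Tbx18* 19.2% and 17.9% and *Tbx3* 6.50% and 1.49%.

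*Tbx4*, the hindlimb control, was present in 8 of 76 autopod cells (10.5%, 4.66 to 19.7) and 7 zeugopod cells (5.69%, 2.32 to 11.4). Reads were few in almost all of the 15 cells. The highest number was 1424, in an autopod cell of NXT0143 that also held 68 *Tbx5* reads, the next was 132, and the other 13 cells had between 5 and 64. The first cell alone made up 83.8% of the *Tbx4* of the autopod. Of the other hindlimb genes, *Pitx1*, *Hoxc10* and *Hoxc11* were present in 0 of 199 cells, with at most 1 read in any cell, and *Isl1* in 1. *Hoxc5*, a *Hoxc* gene of the forelimb, was present in 5 cells, and *Hoxc4* in 0.

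*Tbx5* and *Tbx4* were present together in 4 autopod and 6 zeugopod cells. The product of their shares within each set gives 3.43 and 6.14 cells, so the counts lay close to these products. Of the 15 cells with *Tbx4*, 10 thus held *Tbx5* as well, and 3 autopod cells held *Tbx4* as their sole member.

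Below the criterion of 5 reads, a further 26 zeugopod cells had 1 to 4 *Tbx4* reads. At 1 read or more, 32 of 33 zeugopod cells with *Tbx4* also had *Tbx5*. At this criterion *Tbx5* was found in 92.7% of all zeugopod cells, so the count alone does not set the pair apart. *Tbx4* had 1 or more reads in 28 of 60 zeugopod cells with 500 or more *Tbx5* reads (46.7%, 33.7 to 60), in 2 of 44 cells with 5 or more but under 500 (4.55%) and in 3 of 19 cells with fewer than 5 (15.8%). *Tbx2* was found at 1 read or more in 29, 9 and 1 of the same cells, with shares of 48.3%, 20.5% and 5.26%. *Tbx6*, which marks early mesoderm rather than limb mesenchyme, was found in 25, 5 and 0 of them, with shares of 41.7%, 11.4% and 0, and never above 12 reads. For *Tbx10* and *Tbx20*, other T-box genes found in few cells, the shares were 18.3%, 20.5% and 15.8% for *Tbx10* and 25%, 27.3% and 5.26% for *Tbx20*. Median reads on genes were highest in the cells with the most *Tbx5*, at 3540738 against 2928511.5 and 2763102, and the medians of genes detected were 4110, 3829 and 3671. Their part in these shares was not tested. Within NXT0143, where median reads were 2718773.5, 2675602 and 2536090.5 and median genes detected were 3950.5, 3621 and 3656.5, *Tbx4* had a read in 46.2%, 4% and 14.3% of the classes in the same order.

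**Figure D3:**
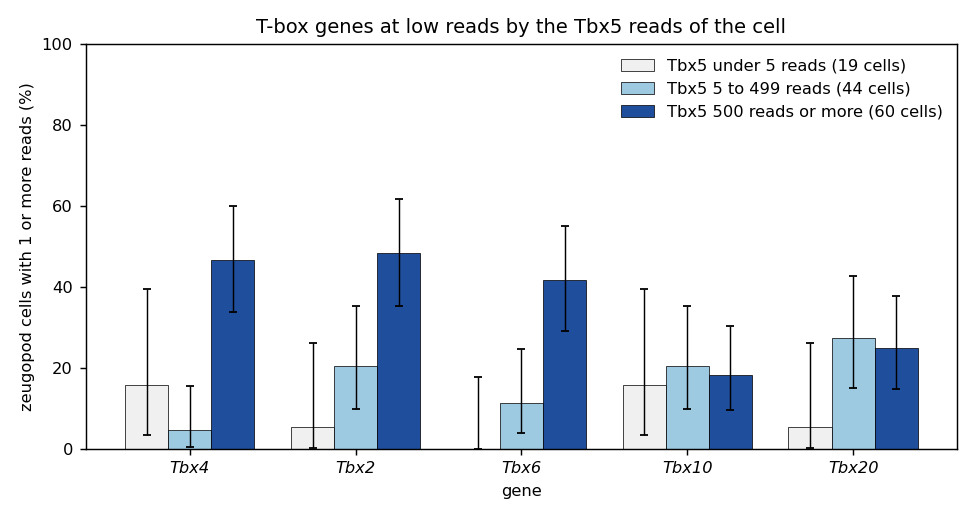
Percent of zeugopod cells with 1 or more reads (y axis) of 5 T-box genes (x axis), split by the *Tbx5* reads of the cell, with exact 95% binomial intervals. *Tbx4*, *Tbx2* and *Tbx6* are above 40% in cells with 500 or more *Tbx5* reads and at or below 20.5% in the others, whereas *Tbx10* and *Tbx20* show no such step between the upper classes.

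Of the 33 zeugopod cells with a *Tbx4* read, 84.8% (68.1 to 94.9) had 500 or more *Tbx5* reads, against 48.8% of all zeugopod cells. Among the 3447 genes found in 25 to 45 zeugopod cells at 1 read or more, the median share was 51.7%, and 0.029% of them (1 gene, *Tbx4* itself) reached that of *Tbx4*. The share of *Tbx6* was 83.3%, reached by 0.058% of these genes, and that of *Tbx2* was 74.4%, reached by 0.174%. *Tbx6* had a read in 39.3% of zeugopod cells with 500 or more *Tbx15* reads against 21.4% of those with fewer than 5. By *Tbx18* the shares were 37.5% and 14.7%, and by *Tbx3* they were 50% of 14 cells and 18.9% of 95. The intervals overlap in each case. The 50% by *Tbx3* lay above the 41.7% of *Tbx6* in cells with 500 or more *Tbx5* reads. For *Tbx4* the shares in these classes were 21.4% and 25.7% by *Tbx15*, 20.8% and 22.1% by *Tbx18*, and 35.7% and 26.3% by *Tbx3*. For *Tbx2* they were 32.1% and 31.4% by *Tbx15*, 20.8% and 26.5% by *Tbx18*, and 42.9% and 27.4% by *Tbx3*. Among the 31 cells with 5 or more but under 500 *Tbx18* reads, *Tbx2* had a read in 51.6%. Its share in cells with 500 or more *Tbx5* reads was 48.3%. The classes and the comparison were chosen after these values were seen.

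Across all 10892 genes that vary in both zeugopod sets, the 3 genes closest to *Tbx4* by rank correlation within each run were T-box genes. The mean of Spearman's rho over the runs was 0.52 for *Tbx2*, reached by 0.00918% of genes, 0.46 for *Tbx6* (0.0184%) and 0.42 for *Tbx5* (0.0275%), while the median over all genes was 0.06. Seen from *Tbx5*, *Tbx6* ranked 1 (0.57), *Tbx4* 3 (0.42) and *Tbx2* 4 (0.40), while *Tbx15* had 0.03, beside a median of 0.05 over all genes. The mean rho of *Tbx2* with *Tbx6* was 0.62. *Tbx3* (0.07), *Tbx15* (0.01) and *Tbx18* (0.06) stood near the median of all genes in their rho with *Tbx4*. The values rest on 58 and 65 cells that differ in depth, and on reads mostly between 0 and 4. Reads on genes ran from 186271 to 6801278 in NXT0142 and from 425695 to 4282436 in NXT0143. Over all zeugopod cells, given the number of genes detected, the rho was 0.47 for *Tbx4* with *Tbx2* (0.52 without this) and 0.38 for *Tbx4* with *Tbx5* (0.43 without). With CPM the order for *Tbx4* was the same for the first 2 genes, and *Tbx5* ranked 4. In the autopod the mean rho between *Tbx4* and *Tbx5* was 0.09, and *Tbx4* had a read in 31.2% of the 16 cells with 500 or more *Tbx5* reads, in 18.8% of the 16 cells with 5 or more but under 500 and in 9.09% of the 44 cells with fewer, with intervals that overlap. Whether reads of *Tbx5* were placed on its paralogs, which share the stretches counted above, was not tested, as the alignments were not used here, so *Tbx4*, *Tbx2* and *Tbx6* at few reads are uncertain.

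*Tbx3* cells of the zeugopod were almost all cells with *Shox2*, the homeobox gene needed for the proximal limb skeleton. *Shox2* was present in 73 zeugopod cells (59.3%) and in 27 of the 28 with *Tbx3* (96.4%, 81.7 to 99.9). The remaining cell had 407 *Tbx3* and 3 *Shox2* reads. By run, *Tbx3* was present in 7 of 31 cells with *Shox2* and 0 of 27 without it in NXT0142, and in 20 of 42 and 1 of 23 in NXT0143. The direction was the same in both runs, and the intervals of the shares overlap in NXT0142 (9.59 to 41.1 and 0 to 12.8) but not in NXT0143. Median genes detected were 4069 in cells with *Shox2* and 3963.5 in cells without it.

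Among the 3381 genes present in 20 to 40 zeugopod cells, the median share of cells that also held *Shox2* was 62.1%, and 0.0296% of the genes (1 gene, *Tbx3* itself) reached 96.4%. After thinning, 30 of 30 *Tbx3* cells held *Shox2*, and with 1 read as criterion for both genes 34 of 37 did. Levels went together as well, with a rho of 0.53 over all zeugopod cells and 0.42 within the 73 cells with *Shox2*. The pair was singled out after its values were seen. For the other members, *Tbx5* was present in 64 of 73 cells with *Shox2* and 40 of 50 without it, *Tbx15* in 36 and 17, *Tbx18* in 33 and 22, *Tbx2* in 10 and 5 and *Tbx4* in 2 and 5.

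**Figure D4:**
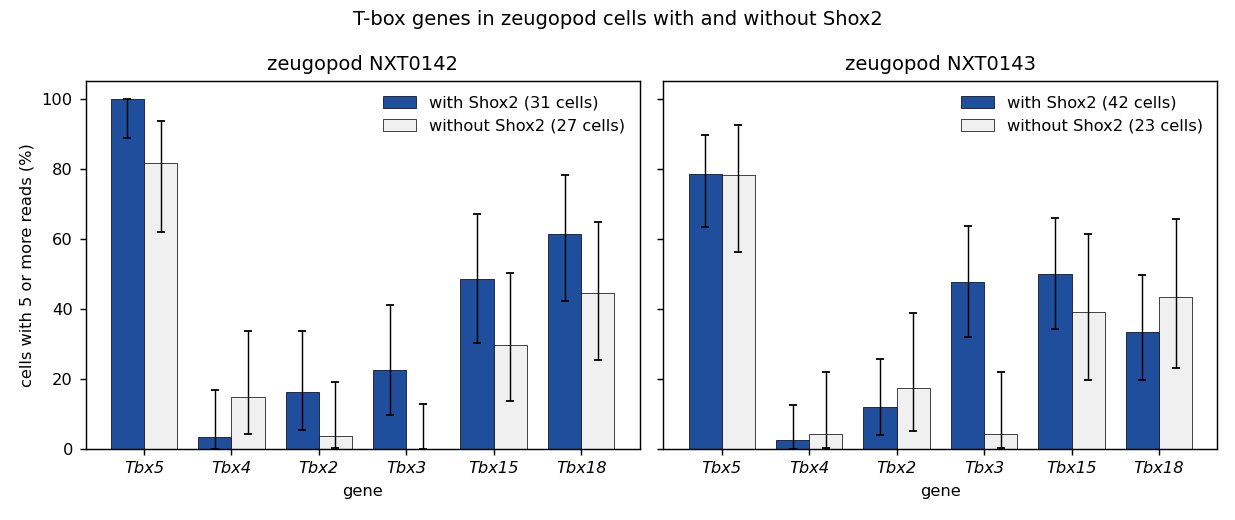
Percent of zeugopod cells (y axis) with 5 or more reads of each T-box gene (x axis) in cells with (dark) and without (light) *Shox2*, left NXT0142 and right NXT0143, with exact 95% binomial intervals. *Tbx3* is at 22.6% against 0 in NXT0142, where the intervals overlap, and at 47.6% against 4.35% in NXT0143, where they do not, and *Tbx15* is also higher with *Shox2* in both runs, with intervals that overlap.

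Ranked over all genes of the normalized table within the zeugopod sets, the gene most like *Tbx3* was its antisense neighbour *Tbx3os1* (mean rho 0.61), followed by *Shox2* (0.50), the secreted signal gene *Wnt11* (0.48), the chemokine gene *Cxcl14* (0.48) and the growth factor gene *Igf1* (0.47). These are descriptions over 2 sets of cells and were looked up after the data were seen. *Tbx3os1* was present in 0 of 76 cells of the autopod, so a share of up to 3.95% is allowed, and in 17 zeugopod cells (13.8%, 8.26 to 21.2). Of those 17 cells, 14 held *Tbx3* (82.4% of the *Tbx3os1* cells and 50% of the *Tbx3* cells), where the product of the shares gives 4.48, and 16 held *Shox2*. In 3 of the 14 cells *Tbx3os1* had more reads than *Tbx3*, and the median ratio of its reads to those of *Tbx3* was 0.486. As the genes overlap and strand was not kept, part of these reads could belong to either.

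Other landmark genes gave these splits. In the zeugopod, *Tbx4* was present in 7 of 67 cells with *Meox2* and 0 of 56 without it, and *Tbx3* in 20 and 8, where cells with *Meox2* had a median of 4210 genes detected and the others 3773.5. The intervals overlap for both genes, and the 7 cells with *Tbx4* had between 5 and 132 of its reads. With *Hoxa11*, the zeugopod *Hox* gene, *Tbx18* was present in 2 of 14 cells of NXT0143 and in 22 of 51 cells without it, and in 10 of 20 and 21 of 38 cells of NXT0142, with intervals that overlap in both runs. In the autopod, *Tbx5* was present in 26 of 65 cells with *Hoxd13* and in 6 of 11 without it, and the latter had fewer genes detected (median 2735 against 3805). The intervals of this split overlap, and it pools runs with *Tbx5* shares of 35.6% (NXT0072) and 64.7% (NXT0143). *Tbx15* was present in 11 of 45 autopod cells with *Hoxa13* and in 16 of 31 without it. In NXT0072 this was 9 of 39 against 13 of 20, with intervals that do not overlap, and in NXT0143 it was 2 of 6 against 3 of 11, which is the other direction in few cells. With 1 read as criterion for both genes the NXT0072 shares were closer, at 46.3% and 61.1%. Cells with chondrogenic markers held *Tbx15* in 17 of 35 autopod cells, against 10 of 41 others, and in 18 of 38 zeugopod cells, against 35 of 85, though the zeugopod runs differed, with 11 of 19 against 12 of 39 in NXT0142 and 7 of 19 against 23 of 46 in NXT0143. *Tbx18* went the other way, with 6 of 35 against 11 of 41 in the autopod and 14 of 38 against 41 of 85 in the zeugopod. Counting intervals overlap in each of these splits by chondrogenic markers.

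Most cells held at least 1 of the 6 genes. In the autopod 17 of 76 cells held none (22.4%, 13.6 to 33.4), and 7 zeugopod cells held none (5.69%, 2.32 to 11.4). At least 2 genes were present in 23 autopod cells (30.3%, 20.2 to 41.9) and 86 zeugopod cells (69.9%, 61 to 77.9), with 30.5% and 29.4% in the autopod sets and 74.1% and 66.2% in the zeugopod sets. The sets of 1 tissue lay closer together here than for *Tbx5*. Within NXT0143 the intervals of the tissues overlap, at 10.3 to 56 for the 17 autopod cells and 53.4 to 77.4 for the zeugopod. No cell held all 6, and 5 cells held 5.

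**Figure D5:**
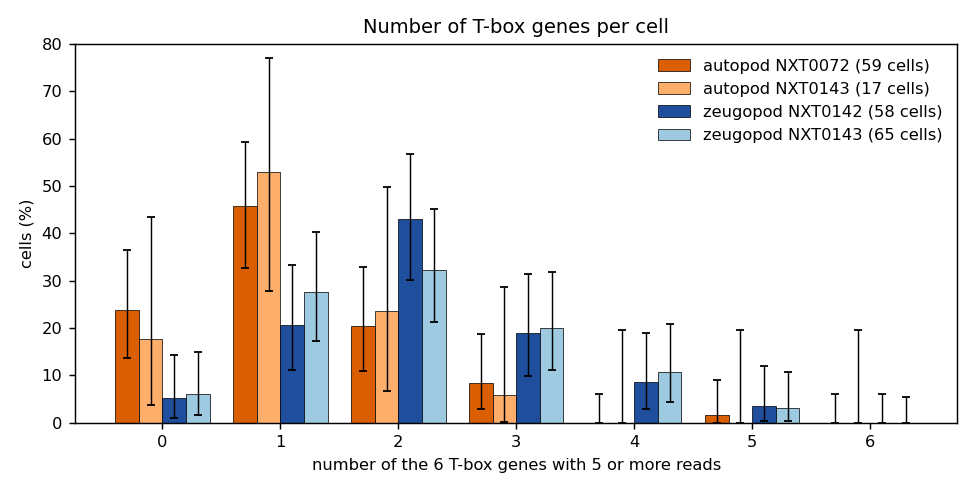
Percent of cells (y axis) by how many of the 6 T-box genes had 5 or more reads (x axis), 1 bar per set by tissue and run, with exact 95% binomial intervals. Autopod sets peak at 1 gene (45.8% and 52.9%) and zeugopod sets at 2 (43.1% and 32.3%).

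The number of members in a cell went with the number of genes detected, with a rho of 0.39 over autopod cells and 0.31 over zeugopod cells. By run the autopod rho was 0.43 in NXT0072 and 0.15 in NXT0143. Autopod cells with none had a median of 2735 genes and those with 2 a median of 3934, and in the zeugopod these medians were 3642 and 3933. The autopod medians were 2666.5 and 3557 in NXT0072. They were close in NXT0143, at 4504 for the 3 cells with none and 4523.5 for the 4 cells with 2. Thinned to the same depth with 1 read as criterion, the shares with at least 2 genes were 37.5% and 73.9%.

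The members came in 31 combinations, none included, 17 in the autopod and 27 in the zeugopod. In the zeugopod the most frequent were *Tbx5* alone (23 cells), *Tbx5* with *Tbx18* (18), *Tbx5* with *Tbx15* (14) and the 3 together (14). In the autopod they were *Tbx5* alone and *Tbx15* alone (13 cells each), *Tbx18* alone and *Tbx5* with *Tbx15* (5 each). *Tbx15* without any other member was found in 4 zeugopod cells, all of NXT0143.

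Among the 15 pairs of members, cells with both can be set beside the product of shares within sets. *Tbx5* with *Tbx15*, for example, made 10 autopod cells where the product gives 11.1 and 44 zeugopod cells where it gives 44.6, and *Tbx5* with *Tbx3* made 24 zeugopod cells against 22.9. *Tbx15* and *Tbx18*, the paralogs of limb mesenchyme, were together in 28 zeugopod cells against 23.4, made of 16 against 11.1 in NXT0143 and 12 against 12.3 in NXT0142. *Tbx2* and *Tbx3* were together in 7 zeugopod cells against 3.63, made of 4 against 0.724 in NXT0142 and 3 against 2.91 in NXT0143. Rank correlations of levels ran from -0.10 to 0.27 over the pairs among autopod cells and 0.00 to 0.52 among zeugopod cells, with medians of 0.07 and 0.09. These correlations in sparse counts are given as a description.

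By the ranking over the 4 sets among 4109 or 4110 genes that passed a filter on low reads, the genes most like *Tbx5* were *Dynll1* (mean rho 0.41), *Sos1* (0.36) and *Nfib* (0.35), where 0.608% of genes had a mean rho of at least 0.3. For *Tbx3* they were *Ctnnd1* (0.38), *Tgfbr3* (0.36) and *Mcrs1* (0.35), with 0.511% of genes at that level. For *Tbx15* they were *Mapk8ip3* (0.37), *Aff3* (0.34) and *Ttc1* (0.34), with 0.146%, and for *Tbx18* *Stk38l* (0.35), *Anp32e* (0.32) and *Rbms3* (0.31), with 0.0973%. In each case the smallest set, 17 autopod cells, weighed as much as the others, and its rho of *Tbx18* with *Stk38l*, 0.75, stood beside 0.04 in zeugopod cells of NXT0143. For *Tbx3* that set holds a single read in 1 cell, so its rho there, which is 1 for *Tgfbr3*, rests on that read.

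Around the T-box genes, a list of 31 genes of the limb network had 30 used here and 22 in the normalized table. Of those 22, 5 were called as higher in the autopod, beside 2.47% of all genes, and 0 as higher in the zeugopod, beside 4.29%, where the list was chosen with earlier results of these data known. Their median difference was 0.47 beside -0.04 over all genes. The 5 were *Msx1* (4.95) and *Msx2* (2.97), which respond to Bmp, the signal gene *Wnt5a* (2.89), the mesenchyme factor *Prrx2* (2.24) and *Gli3* (2.08), the repressor of the hedgehog pathway. For *Prrx2* the difference within NXT0143 was 0.22 against 2.57 between the other runs. The calls of the T-box members were in the other direction. Among targets of *Tbx5*, none of 3 was called, and *Fgf10* was present in 15 autopod and 12 zeugopod cells, *Sall4* in 9 and 4 and *Sall1* in 12 and 26. *Shh*, the posterior signal, had no reads, and *Hand2*, which with *Tbx3* belongs to the posterior limb, was present in 14 autopod and 47 zeugopod cells with a difference of -0.89. Among the 5 repressor partners of T-box factors, none was called, and *Hdac2* was the most widely found, in 44 and 76 cells. Of the cell cycle inhibitors on the list, *Cdkn1a*, which *Tbx2* is known to repress, was present in 2 autopod cells and 0 zeugopod cells, whereas *Cdkn1c* was present in 88.2% of autopod and 94.3% of zeugopod cells.

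A further 13 genes of the raw counts carry a T-box name. *Mga*, a large factor that joins a T-box to a Myc partner domain, was present in 48 autopod (63.2%) and 78 zeugopod cells (63.4%). *Tbx10* was present in 4 and 14 cells, *Tbx20* in 1 and 9 and *Tbx6* in 2 and 8, and 7 of the 13 genes, *Tbx1*, *Tbx19*, *Tbx21*, *Tbx22*, *Eomes*, *T* and *Tbx3os2*, were present in at most 3 cells each. *Tbr1* was present in 1 and 3 cells. Among the 26 captured cells that the authors did not retain, with a median of 25639.5 reads on genes, *Tbx5*, *Tbx4* and *Tbx15* were each present in 1 cell.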

How the data were processed

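The authors mapped reads of 75 bases uniquely to the mouse genome (GRCm38, also called mm10), using the local mode of Bowtie2, and the deposited raw counts cover 225 cells. They also deposited a normalized signal for 10948 genes in 199 cells, made with spike-in size factors, centred by the batch a cell came from, and gene length. The deposited signal is not logged, and its lowest value for a gene, at 0 reads, is the inverse of the gene length in kb. Here, with python 3.11.15, numpy 2.4.6, pandas 2.3.3 and scipy 1.17.1, shares were taken from the raw counts at 5 reads and differences from log2(signal + 1). Spike-in rows were not used, doublets were not called, and the blood list, with 1 of its 4 genes among the rows, was void. Cells were thinned without replacement to 500000 reads (seed 42, 191 cells). A difference of log2 means was called at 1 or more with the same direction in both run comparisons. Named genes were the members, the limb network list, all genes with a T-box name, landmark genes and the 3 most alike genes. *Tbx6*, *Tbx10*, *Tbx20*, *Wnt11*, *Cxcl14*, *Igf1* and the *Tbx5* read classes were singled out after their values were seen. Members and lists were chosen with earlier results of these data known. Alternatives were other criteria on reads, CPM, pseudocounts of 0.1 and 10, the lowest value subtracted, thinning and single runs. The sequences of the most alike windows are not reported here.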

Additional observations from a re-analysis of the deposited data

Results flagged for a closer look

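The difference of *Tbx5* between autopod and zeugopod, on the scale of log2(normalized value + 1), drew attention because its sign differs between the run comparisons. It was 0.20 within NXT0143 (17 autopod and 65 zeugopod cells) and -4.09 between the autopod set of NXT0072 and the zeugopod set of NXT0142. For the same reason *Tbx4* stood out, with 0.60 within NXT0143 and -0.0076 between the other runs, and *Tbx2*, with -0.41 and 0.068. For *Tbx4*, 1 autopod cell with 1424 reads carried 96.3% of the summed *Tbx4* of autopod NXT0143. Such a change of sign was found for 48.5% of all genes, taken at any size of difference. Among genes with a pooled difference of 1 or more, as *Tbx5* had, 470 of 685 toward the zeugopod and 270 of 310 toward the autopod kept 1 direction. The difference between the run comparisons was not tested, as each tissue is 1 pooled sample.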

How the results depend on the processing

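No paired analysis was possible because each tissue is 1 pooled sample and the cell numbers shared by the labels pair nothing. Of 546 values recomputed under alternatives, 350 stayed close to the reported one, 195 moved and 1 reversed, namely the *Tbx5* difference, which was 0.20 in NXT0143 alone, -4.09 in the other run comparison and -1.56 with a pseudocount of 10. A reversal was counted only for a pooled difference of 1 or more. Below that size, *Tbx2* went from -0.09 to 0.022 with a pseudocount of 10 and 0.068 between NXT0072 and NXT0142, and *Tbx4* from 0.18 to -0.0076 between those runs. At 1 read, *Tbx5* was present in 56.6% of autopod and 92.7% of zeugopod cells. It was present in 64.7% of autopod cells of NXT0143 alone, in 91.4% of zeugopod cells of NXT0142 alone, and in 74% of zeugopod cells at a normalized value of 5. At least 2 members were present in 59.2% and 84.6% of autopod and zeugopod cells at 1 read, and in 56.1% of zeugopod cells at a normalized value of 5. *Tbx5* and *Tbx4* together were found in 9 autopod and 32 zeugopod cells at 1 read, in 11 zeugopod cells after thinning, in 2 at a normalized value of 5, and in 2 cells of each autopod run and 2 of zeugopod NXT0143. *Tbx3* cells held *Shox2* in 100% of cases after thinning and in NXT0142 alone. The number of members higher in the zeugopod was 2, and 0 at a difference of 2 or with a pseudocount of 10, and 3 with CPM. Over all genes, 470 were higher in the zeugopod and 270 in the autopod (63.5% of calls in the zeugopod), with CPM 805 and 231 (77.7%), with a pseudocount of 0.1 735 and 453, with 10 180 and 81, and after thinning 828 and 238. With CPM the median of all genes moved from -0.04 to -0.12. Shares of members at few reads depended on the read criterion. In the zeugopod, *Tbx4* was present in 5.69% of cells at 5 reads and 26.8% at 1 read, and *Tbx2* in 12.2% and 31.7%. The part of depth in these shares and the cause of the shifts above were not tested.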
